A study of Homo sapiens with 16 samples.

Results

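The DNA replication machinery was followed in SH-SY5Y neuroblastoma cells as 50 genes chosen by symbol, from the origin recognition complex to the histone chaperone that packs new DNA. All 50 were found by Ensembl gene ID among the 26410 genes measured, and all 50 passed the filter on low values in every comparison. In a dividing cell, the origin recognition complex marks where copying starts, CDC6 and CDT1 load the ring-shaped MCM helicase there, and the kinase CDC7 with its partner DBF4, CDC45 and the GINS complex turn that helicase on. Polymerases, the sliding clamp PCNA and its loaders then copy both strands, and RPA coats the exposed single strands. Many of these genes are read by E2F transcription factors when a cell enters S phase, and doxorubicin, a chemotherapy drug that traps topoisomerase on DNA, breaks the DNA that this machinery copies.

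The cells were single-cell clones of SH-SY5Y, a neuroblastoma cell line, transfected with a Cas9 plasmid and a donor vector that carries GFP and puromycin markers. Clones KO11 and KO28 received a TRPM2 guide RNA, and clones Scr13 and Scr16 a scrambled guide RNA. All were selected with puromycin and were either left untreated or given doxorubicin for 24 h, at 0.3 µM by the sample labels and 3 µM by the design text of the series. Each of the 4 clones had 2 replicates per treatment, so each group held 4 libraries from 2 clones, and replicates of a clone share that clone. Libraries had between 10481177 and 25086085 reads on genes, and the members had between 115 reads (POLE2) and 15780 reads (MCM7) in a library. Values are normalized CPM, read counts that the authors scaled to the adjusted library size.

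TRPM2 was higher, not lower, in the untreated libraries labelled TRPM2 KO than in untreated Scr. Untreated libraries labelled TRPM2 KO had TRPM2 at 1.93 and 2.23 in KO11 and 1.41 and 2.19 in KO28, and untreated Scr libraries had 0.118 and 0.115 in Scr13 and 0 reads in both of Scr16. After doxorubicin the values were 1.22 and 1.83 in KO11, 1.37 and 0.658 in KO28, 0.0594 and 0.0631 in Scr13 and 1.33 and 0.390 in Scr16. The log2 fold change of untreated KO over Scr was 1.47 ± 0.27 (SE), adjusted p = 0.00154. After doxorubicin it was 0.69 ± 0.33 (SE), adjusted p = 0.249, and the groups overlapped. Both are differences of log2(normalized CPM + 1), where the added 1 shrinks the change at such low levels. Untreated TRPM2 passed the filter on low values only through the libraries labelled TRPM2 KO. That test could be run only because they were high, so its adjusted p is no separate support for the difference. All Scr13 and untreated Scr16 libraries were at or under 3 reads. By the study's methods the edit deleted the start of the coding sequence and shifted the reading frame of the rest, so read totals of the gene do not check the edit. KO hereafter stands for the libraries labelled TRPM2 KO. Of 11 adrenergic neuroblastoma markers, 10 had at least 1 normalized CPM in all 16 libraries, led by STMN2, while TH, the first enzyme of catecholamine synthesis, was near 0. Among the epithelial and immune markers measured, KRT8 and CDH1 stayed under 1 normalized CPM in every library, and KRT18, EPCAM and CD14 reached at most 2.85, 1.82 and 1.67. In bulk RNA, fewer cells in S phase and less RNA per cell cannot be told apart.

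Promoter sequences are shown because E2F-type letters are a feature that several of these genes share and that did not enter their choice. RefSeq promoter sequences of build GRCh38.p14 were matched for 42 of the 50 genes and searched on both strands over the 250 bases before the start for the E2F-type letters TTTCCCGC, TTTGGCGC, TTTCGCGC and TTTGCCGC. The 4 genes printed are MCM6 (chr2:135876444-135876693, minus strand) and GINS2 (chr16:85688955-85689204, minus strand), which fell in both genotypes after doxorubicin, and CDT1 (chr16:88803539-88803788, plus strand) and PCNA (chr20:5126623-5126872, minus strand), which passed the test in neither. Capitals mark the matched letters.
MCM6: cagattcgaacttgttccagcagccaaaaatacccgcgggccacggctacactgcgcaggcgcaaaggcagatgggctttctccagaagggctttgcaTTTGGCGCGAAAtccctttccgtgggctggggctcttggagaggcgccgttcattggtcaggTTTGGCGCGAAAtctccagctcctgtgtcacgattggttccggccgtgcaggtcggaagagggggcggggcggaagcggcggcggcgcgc
GINS2: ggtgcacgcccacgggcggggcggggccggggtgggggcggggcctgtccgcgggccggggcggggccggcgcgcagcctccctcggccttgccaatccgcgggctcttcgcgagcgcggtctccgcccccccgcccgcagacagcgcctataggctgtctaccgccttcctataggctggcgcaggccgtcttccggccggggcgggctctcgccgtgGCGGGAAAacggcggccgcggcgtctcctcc
CDT1: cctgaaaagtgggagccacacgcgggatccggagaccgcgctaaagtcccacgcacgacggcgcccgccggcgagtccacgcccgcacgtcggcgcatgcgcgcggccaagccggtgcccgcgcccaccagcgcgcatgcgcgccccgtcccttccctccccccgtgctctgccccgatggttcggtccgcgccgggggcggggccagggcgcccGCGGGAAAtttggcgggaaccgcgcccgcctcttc
PCNA: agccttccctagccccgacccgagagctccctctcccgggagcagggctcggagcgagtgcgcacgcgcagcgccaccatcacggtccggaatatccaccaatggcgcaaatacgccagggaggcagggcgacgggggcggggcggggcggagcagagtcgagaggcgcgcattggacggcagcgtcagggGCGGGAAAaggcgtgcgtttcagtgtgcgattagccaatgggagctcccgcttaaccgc

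In both capital runs of MCM6, TTTGGCGC overlaps TTTCGCGC read on the other strand, which gives 4 matches between 86 and 152 bases before the start. The other promoters shown held 1 match each, TTTCCCGC on the other strand, 31 bases before the start in GINS2, 35 in CDT1 and 59 in PCNA. Of the 42 matched genes, 15 held at least 1 match (35.7%), and counted by promoter it was 15 of 53 (28.3%), against 979 of 35116 promoters in the whole table (2.79%). The CHR letters TTTGAA, known from genes of G2 and mitosis, were in 0 of the 53 promoters and in 13.3% of all promoters. E2F-type letters were held by 7 of 19 members that fell in both genotypes, 3 of 9 that fell in one and 5 of 14 that passed the test in neither. These shares are 36.8%, 33.3% and 35.7%, and a match in a promoter is a description of letters, not of binding.

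Untreated Scr libraries showed large differences in level among the members when CPM was divided by exon length in kilobases. PCNA stood highest at 151 CPM per kb, followed by MCM7 at 149 and MCM3 at 107. The other MCM subunits lay between 27.8 (MCM5) and 61.7 (MCM2). At the low end were GINS4 at 4.25, TIPIN at 5.81 and GINS3 at 5.85 CPM per kb. With untreated MCM7 at 652 ± 29.9 normalized CPM and PCNA at 222 ± 16.4 (SD, n = 4), their order per length does not differ beyond the spread.

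After 24 h of doxorubicin, replication genes fell in both genotypes and none passed the test as higher, although several alternatives called CDT1 higher in Scr. In Scr, 24 of 50 fell and 26 did not pass the test (limma, Benjamini-Hochberg adjusted over all genes tested). Of the 14378 genes tested in Scr, 4.94% were called lower. In KO, 30 of 50 fell and 20 did not pass, while 7.38% of 14513 genes were called lower. These fits held no term for clone. With clone as a fixed block, the 24 in Scr and the 30 in KO kept their calls. CDT1 was then added as higher in Scr (adjusted p = 0.0333), and CHAF1B, POLD2 and WDHD1 were added as lower in KO. The median log2 fold change of the members was -0.31 in Scr and -0.36 in KO, beside -0.01 and 0.02 over all genes tested. By sign, 49 of 50 members were below 0 in Scr and 48 in KO. The 4 doxorubicin libraries lay below the 4 untreated ones without overlap for 29 members in Scr, where 8.35% of all genes did so, and for 29 in KO, where 8.79% did. Fold changes are differences of log2(normalized CPM + 1). With 1 clone left out there were fewer calls, 5 in Scr without Scr13, 8 in Scr without Scr16 and 17 in KO without KO11, each with 2 libraries against 2. For a member whose groups did not overlap, the two-sided exact permutation test gave p = 0.0286, the smallest possible with 4 libraries against 4.

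**Figure D1:**
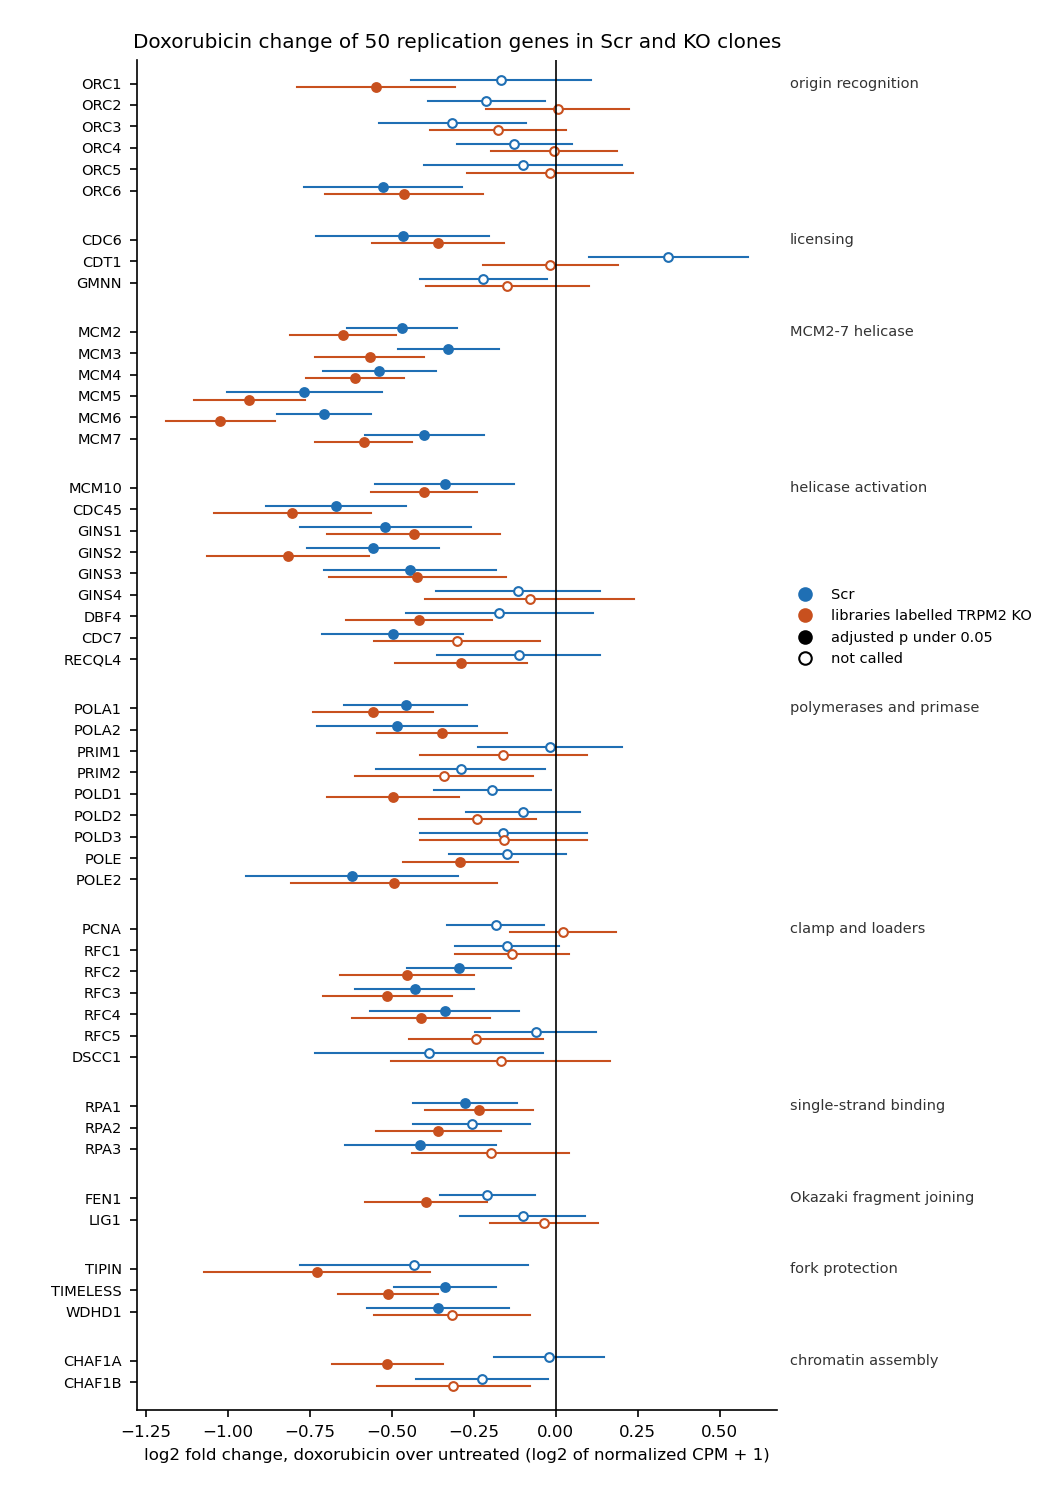
Log2 fold change of each of the 50 genes with doxorubicin (horizontal axis, log2 of normalized CPM + 1) in Scr (blue) and KO (orange), with 95% intervals from 4 against 4 libraries and filled points where adjusted p was under 0.05. MCM6 and MCM5 in KO lie farthest left, at -1.02 and -0.93, and 3 points lie right of 0, CDT1 in Scr at 0.34, PCNA in KO at 0.02 and ORC2 in KO at 0.01.

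Taken over single clones, the median log2 change of the members was -0.38 in KO11, -0.36 in KO28, -0.30 in Scr13 and -0.33 in Scr16. Between 45 and 49 of the 50 genes were lower in each clone. Both genotypes shared 21 members that fell in each, CDC6, ORC6, all 6 MCM subunits, MCM10, CDC45, GINS1, GINS2, GINS3, POLA1, POLA2, POLE2, RFC2, RFC3, RFC4, RPA1 and TIMELESS. Of these, CDC6, MCM10, GINS1, GINS3, POLA2, POLE2, RFC2, RFC4 and RPA1 lost the call in at least 1 genotype in some fit that left out 1 library. Among these 21, the calls kept least often were RFC4 in Scr (0 of 8 fits), RPA1 in KO (2 of 8) and MCM10 in Scr (3 of 8). The treated and untreated groups of the last 2 overlapped. A further 3 passed the test in Scr alone and 9 in KO alone, and for 17 the test was passed in neither. Passing in one genotype only does not show a difference between them, and the difference itself is tested further on.

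Of the 6 subunits of the origin recognition complex, 1 fell in Scr and 2 in KO. Positions here and from here on are those of GENCODE 29 on GRCh38. ORC6, its smallest subunit (ENSG00000091651, chr16:46689643-46698394, plus strand), fell in both genotypes. Its normalized CPM was 43.2 and 43.6 in Scr13 and 48.2 and 42.7 in Scr16 without treatment, and 31.7 and 32.7 in Scr13 and 24.4 and 34.1 in Scr16 after doxorubicin. In KO it was 41.3 and 37.1 in KO11 and 47.3 and 44.6 in KO28 without treatment, and 30.9 and 26.3 in KO11 and 30.0 and 35.5 in KO28 after doxorubicin. Treated libraries all lay below untreated ones within each genotype. ORC6 had a log2 fold change of -0.53 ± 0.11 (SE), adjusted p = 0.00558, in Scr and -0.46 ± 0.12 (SE), adjusted p = 0.00689, in KO. ORC1, the subunit that cycles with division, had a log2 fold change of -0.17 ± 0.13 (SE), adjusted p = 0.462, in Scr and fell by 0.55 on the log2 scale in KO (SE 0.12, adjusted p = 0.00164). ORC5, an ATP-binding subunit (ENSG00000164815, chr7:104126341-104208047, minus strand), had the smallest mean change of the complex. It measured 23.5 and 24.1 in Scr13 and 30.8 and 22.2 in Scr16 without treatment, and 22.6 and 20.1 in Scr13 and 29.6 and 21.6 in Scr16 after doxorubicin. The KO libraries gave 22.6 and 25.4 in KO11 and 24.9 and 25.9 in KO28 without treatment, and 24.0 and 26.3 in KO11 and 22.5 and 24.9 in KO28 after doxorubicin. Treated and untreated libraries overlapped in both genotypes. ORC5 had a log2 fold change of -0.10 ± 0.14 (SE), adjusted p = 0.727, in Scr and -0.02 ± 0.12 (SE), adjusted p = 0.952, in KO. ORC2, ORC3 and ORC4 passed the test in neither genotype, with log2 fold changes between -0.32 (ORC3) and -0.13 (ORC4) in Scr and between -0.18 (ORC3) and 0.01 (ORC2) in KO.

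Of the 3 licensing genes, CDC6 fell in both genotypes and CDT1 and GMNN passed the test in neither. CDC6, which joins the origin complex to bring in the helicase (ENSG00000094804, chr17:40287633-40304657, plus strand), measured 74.5 and 81.8 in Scr13 and 77.7 and 76.0 in Scr16 without treatment, and 50.1 and 70.8 in Scr13 and 41.8 and 65.0 in Scr16 after doxorubicin. In KO libraries CDC6 was at 79.8 and 74.3 in KO11 and 81.9 and 60.2 in KO28 without treatment, and 58.1 and 58.3 in KO11 and 55.0 and 57.2 in KO28 after doxorubicin. Every treated value was under every untreated value of the same genotype, in KO by a narrow gap. CDC6 had a log2 fold change of -0.47 ± 0.13 (SE), adjusted p = 0.0211, in Scr and -0.36 ± 0.10 (SE), adjusted p = 0.0119, in KO. CDT1, the partner of CDC6 in loading (ENSG00000167513, chr16:88803213-88809258, plus strand), gave 139.9 and 173 in Scr13 and 141 and 166 in Scr16 without treatment, and 211 and 248 in Scr13 and 150.1 and 187 in Scr16 after doxorubicin. In KO, CDT1 stood at 129 and 129 in KO11 and 161 and 176 in KO28 without treatment, and 134 and 147 in KO11 and 135 and 169 in KO28 after doxorubicin. Both Scr13 values were higher after treatment, those of Scr16 overlapped, and the KO values overlapped. CDT1 had a log2 fold change of 0.34 ± 0.12 (SE), adjusted p = 0.0624, in Scr and -0.02 ± 0.10 (SE), adjusted p = 0.941, in KO. By clone the Scr value was 0.56 in Scr13 and 0.13 in Scr16, and the limma test was not passed. CDT1 was called higher in Scr by DESeq2 (adjusted p = 0.0176), with clone as a fixed block (adjusted p = 0.0333), without clone Scr16 (adjusted p = 0.0223) and without the first treated Scr16 library. GMNN, the inhibitor of CDT1, had log2 fold changes of -0.22 ± 0.09 (SE), adjusted p = 0.136, and -0.15 ± 0.12 (SE), adjusted p = 0.447, in Scr and KO.

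All 6 subunits of the MCM helicase, the ring that unwinds the double strand, fell in both genotypes, and for each of them the treated and untreated libraries did not overlap. MCM6 (ENSG00000076003, chr2:135839626-135876426, minus strand) had the largest mean change over both genotypes among the 50 genes. Its normalized CPM was 216 and 215 in Scr13 and 234 and 239.6 in Scr16 without treatment, and 137 and 145 in Scr13 and 128 and 142 in Scr16 after doxorubicin. For KO the MCM6 values were 204 and 203 in KO11 and 199.6 and 184 in KO28 without treatment, and 87.0 and 108 in KO11 and 99.2 and 93.3 in KO28 after doxorubicin. Treated KO libraries formed the lowest set and untreated Scr libraries the highest, and no value of one group entered another. MCM6 had a log2 fold change of -0.71 ± 0.07 (SE), adjusted p = 2.37e-06, in Scr and -1.02 ± 0.08 (SE), adjusted p = 1.51e-09, in KO. As ratios these are 0.612 in Scr and 0.492 in KO. MCM5 followed with -0.77 ± 0.11 (SE), adjusted p = 0.00019, in Scr and -0.93 ± 0.08 (SE), adjusted p = 1.21e-08, in KO. MCM2, MCM4 and MCM7 fell by between 0.40 and 0.54 on the log2 scale in Scr and between 0.59 and 0.65 in KO. MCM5 measured 189 to 222 in untreated and 92.3 to 150.1 in treated Scr libraries, and 181 to 219.7 and 92.4 to 107 in KO libraries. MCM4 went from 413 ± 15.6 to 286 ± 37.8 normalized CPM in Scr and from 381 ± 19.6 to 249 ± 14.6 in KO (SD, n = 4). MCM7, the most abundant member in reads, went from 652 ± 29.9 to 497 ± 73.8 and from 633 ± 26.2 to 421 ± 25.4. MCM7 shares its locus with MIR25, MIR93 and MIR106B on the same strand and with AP4M1 on the other, and the use of strand in counting is not given in the sources used here.

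MCM3 (ENSG00000112118, chr6:52264009-52284881, minus strand) had the smallest change of the 6 subunits. It was measured at 375 and 392 in Scr13 and 378 and 411 in Scr16 without treatment, and 276 and 341 in Scr13 and 293 and 334 in Scr16 after doxorubicin. KO libraries held MCM3 at 368 and 351 in KO11 and 343 and 350.1 in KO28 without treatment, and 204 and 247 in KO11 and 234 and 270.4 in KO28 after doxorubicin. The treated KO values were the lowest set, all below the treated Scr values. MCM3 had a log2 fold change of -0.33 ± 0.07 (SE), adjusted p = 0.00682, in Scr and -0.57 ± 0.08 (SE), adjusted p = 1.51e-05, in KO.

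**Figure D2:**
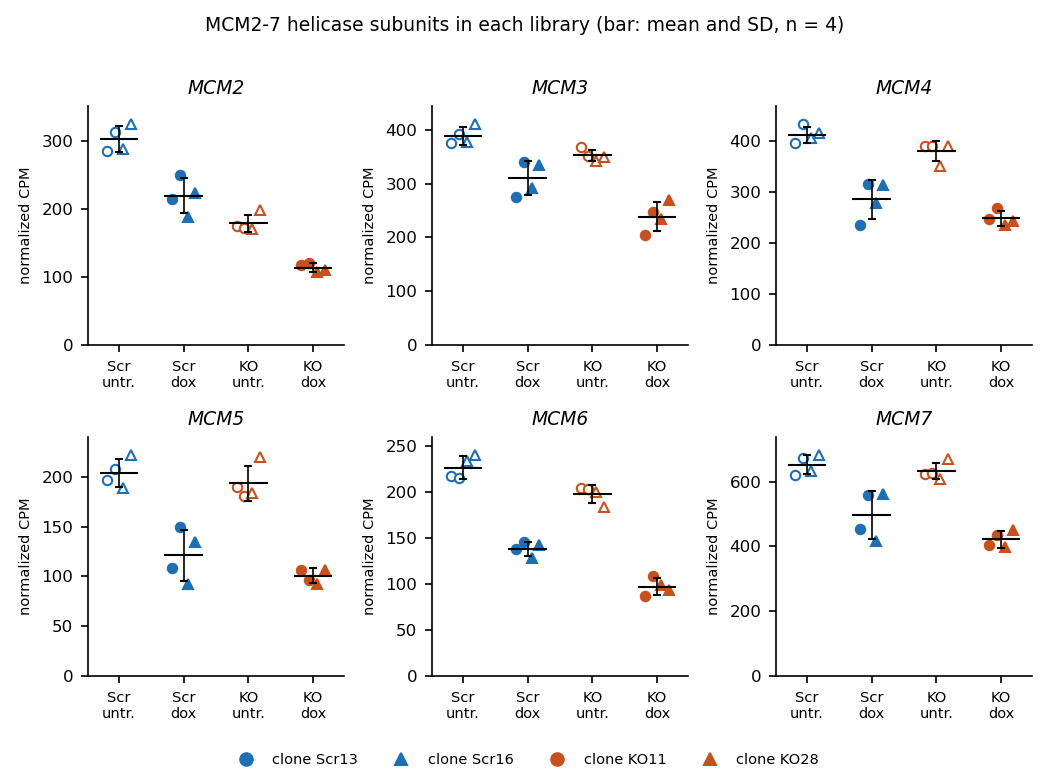
Normalized CPM (vertical axis) of the 6 MCM subunits in each of the 16 libraries by group, open symbols untreated and filled symbols after doxorubicin, with the clone given by colour and shape and bars for mean and SD (n = 4). Treated libraries lie below untreated ones for every subunit in both genotypes, and MCM2 is already lower in the untreated KO libraries, at 171 to 198 against 285 to 324 in Scr.

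Genes that turn the loaded helicase on fell for the most part, 6 of 9 in Scr and 7 of 9 in KO. CDC45, which joins MCM and GINS into the active helicase (ENSG00000093009, chr22:19479459-19520612, plus strand), gave 50.3 and 53.7 in Scr13 and 58.9 and 53.4 in Scr16 without treatment, and 29.6 and 37.5 in Scr13 and 33.1 and 34.6 in Scr16 after doxorubicin. With KO, its values were 59.9 and 51.0 in KO11 and 58.7 and 48.2 in KO28 without treatment, and 28.3 and 36.6 in KO11 and 32.1 and 26.5 in KO28 after doxorubicin. All treated values were lower than all untreated ones. CDC45 had a log2 fold change of -0.67 ± 0.10 (SE), adjusted p = 0.000262, in Scr and -0.80 ± 0.12 (SE), adjusted p = 2.04e-05, in KO. Within the GINS complex, GINS1, GINS2 and GINS3 fell in both genotypes, and GINS2 had -0.56 ± 0.10 (SE), adjusted p = 0.00086, and -0.82 ± 0.12 (SE), adjusted p = 2.47e-05, in Scr and KO. Mean GINS2 was 53.3 ± 2.07 and 36.0 ± 2.90 normalized CPM in untreated and treated Scr, and 48.8 ± 4.41 and 27.5 ± 4.24 in KO (SD, n = 4). GINS2 overlaps GSE1 on the other strand. GINS4, the fourth subunit, was measured at 21.6 and 23.8 in Scr13 and 23.8 and 23.8 in Scr16 without treatment, and 21.0 and 21.1 in Scr13 and 21.5 and 21.9 in Scr16 after doxorubicin. KO had GINS4 at 20.1 and 20.5 in KO11 and 18.0 and 29.2 in KO28 without treatment, and 17.9 and 24.9 in KO11 and 20.2 and 19.0 in KO28 after doxorubicin. The second untreated KO28 library stood above the rest, and the groups overlapped in KO and in Scr. GINS4 had a log2 fold change of -0.12 ± 0.12 (SE), adjusted p = 0.599, in Scr and -0.08 ± 0.15 (SE), adjusted p = 0.786, in KO. MCM10, which binds the opened origin, fell in both. CDC7, the kinase that fires origins, fell in Scr and RECQL4, a helicase of origin firing, in KO. The RECQL4 call in KO (adjusted p = 0.0428) was kept in 2 of 8 fits that left out 1 library. DBF4, the activating partner of CDC7 (ENSG00000006634, chr7:87876216-87909541, plus strand), gave 60.0 and 84.8 in Scr13 and 101 and 63.3 in Scr16 without treatment, and 66.3 and 74.9 in Scr13 and 55.8 and 72.3 in Scr16 after doxorubicin. In the KO clones DBF4 was 73.0 and 69.5 in KO11 and 71.7 and 57.8 in KO28 without treatment, and 42.4 and 60.9 in KO11 and 51.1 and 49.0 in KO28 after doxorubicin. Values spread widely among untreated Scr libraries. DBF4 had a log2 fold change of -0.17 ± 0.14 (SE), adjusted p = 0.466, in Scr and -0.42 ± 0.11 (SE), adjusted p = 0.00841, in KO. DBF4 overlaps SLC25A40 on the other strand, and 1 pseudogene is named after it.

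Of the polymerase and primase genes, 3 of 9 fell in Scr and 5 of 9 in KO. POLE2, an accessory subunit of the leading strand polymerase (ENSG00000100479, chr14:49643555-49688422, minus strand), held the lowest count of any member in a single library and measured 17.8 and 16.7 in Scr13 and 22.0 and 19.2 in Scr16 without treatment, and 10.6 and 12.7 in Scr13 and 10.9 and 13.5 in Scr16 after doxorubicin. KO libraries gave POLE2 at 17.1 and 17.3 in KO11 and 18.6 and 19.0 in KO28 without treatment, and 12.7 and 10.8 in KO11 and 14.7 and 11.9 in KO28 after doxorubicin. No treated value reached an untreated one of its genotype. POLE2 had a log2 fold change of -0.62 ± 0.15 (SE), adjusted p = 0.0126, in Scr and -0.49 ± 0.15 (SE), adjusted p = 0.0253, in KO. POLA1 and POLA2, the subunits of the priming polymerase, fell in both genotypes, POLA1 by 0.46 on the log2 scale in Scr and by 0.56 in KO. Mean POLA1 was 82.4 ± 3.83 and 59.9 ± 6.68 normalized CPM in untreated and treated Scr, and 79.1 ± 2.78 and 53.5 ± 3.73 in KO (SD, n = 4). PRIM1, the catalytic primase (ENSG00000198056, chr12:56731596-56752373, minus strand), had small values of change. It was 40.6 and 42.0 in Scr13 and 45.0 and 36.5 in Scr16 without treatment, and 45.3 and 40.8 in Scr13 and 36.0 and 39.99 in Scr16 after doxorubicin. The values in KO were 44.6 and 37.0 in KO11 and 42.3 and 33.0 in KO28 without treatment, and 28.3 and 36.0 in KO11 and 35.9 and 40.1 in KO28 after doxorubicin. Groups overlapped in both genotypes. PRIM1 had a log2 fold change of -0.02 ± 0.10 (SE), adjusted p = 0.947, in Scr and -0.16 ± 0.12 (SE), adjusted p = 0.418, in KO. PRIM1 overlaps NACA on the same strand, and how reads in a shared stretch were counted is not given in the sources used here. POLD1, the catalytic subunit of the lagging strand polymerase (ENSG00000062822, chr19:50384204-50418016, plus strand), was 133 and 138 in Scr13 and 115 and 125 in Scr16 without treatment, and 107 and 125 in Scr13 and 98.7 and 118 in Scr16 after doxorubicin. Its KO libraries held 99.5 and 113 in KO11 and 104 and 145 in KO28 without treatment, and 82.4 and 77.0 in KO11 and 82.9 and 79.4 in KO28 after doxorubicin. Treated KO values were the lowest, with 77.0 to 82.9. POLD1 had a log2 fold change of -0.19 ± 0.08 (SE), adjusted p = 0.158, in Scr and -0.50 ± 0.10 (SE), adjusted p = 0.00077, in KO. POLD2, POLD3 and PRIM2 passed the limma test in neither genotype. POLD2 was called lower in KO by DESeq2 (adjusted p = 0.0396) and with clone as a fixed block (adjusted p = 0.0302), and PRIM2 by DESeq2 (adjusted p = 0.0417).

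Of the sliding clamp and its loaders, 3 of 7 fell in each genotype, and the clamp itself was not among them. PCNA, the ring that holds polymerases on DNA (ENSG00000132646, chr20:5114953-5126626, minus strand), gave 203 and 215 in Scr13 and 233 and 238 in Scr16 without treatment, and 186 and 205 in Scr13 and 187 and 204 in Scr16 after doxorubicin. For KO, PCNA values were 232 and 223 in KO11 and 223 and 215 in KO28 without treatment, and 217 and 250.5 in KO11 and 199 and 243 in KO28 after doxorubicin. Treated and untreated libraries overlapped in both genotypes. PCNA had a log2 fold change of -0.18 ± 0.07 (SE), adjusted p = 0.106, in Scr and 0.02 ± 0.08 (SE), adjusted p = 0.89, in KO. PCNA is also a target of p53 by textbook knowledge, and 3 pseudogenes carry its name. RFC3, a subunit of the complex that loads the clamp (ENSG00000133119, chr13:33818049-33966558, plus strand), fell. Its values were 84.6 and 76.9 in Scr13 and 86.0 and 77.0 in Scr16 without treatment, and 56.2 and 56.7 in Scr13 and 59.0 and 68.1 in Scr16 after doxorubicin. In KO, RFC3 gave 78.4 and 79.8 in KO11 and 67.8 and 76.4 in KO28 without treatment, and 49.5 and 60.8 in KO11 and 49.1 and 51.5 in KO28 after doxorubicin. No treated library reached an untreated one of the same genotype. RFC3 had a log2 fold change of -0.43 ± 0.09 (SE), adjusted p = 0.00318, in Scr and -0.51 ± 0.10 (SE), adjusted p = 0.000405, in KO. RFC2 fell in both genotypes as well. RFC4 had a log2 fold change of -0.34 ± 0.11 (SE), adjusted p = 0.0499, in Scr and -0.41 ± 0.10 (SE), adjusted p = 0.00611, in KO. The RFC4 call in Scr was lost in each of the 8 fits that left out 1 library. RFC1 and DSCC1, a part of another loader, passed in neither. RFC5 (ENSG00000111445, chr12:118013588-118033130, plus strand) had 51.5 and 55.7 in Scr13 and 55.8 and 59.0 in Scr16 without treatment, and 57.7 and 52.4 in Scr13 and 49.7 and 52.7 in Scr16 after doxorubicin. KO values of RFC5 were 51.2 and 50.8 in KO11 and 50.6 and 47.3 in KO28 without treatment, and 37.6 and 42.3 in KO11 and 41.9 and 46.8 in KO28 after doxorubicin. Scr values overlapped, and treated KO values lay under all others. RFC5 had a log2 fold change of -0.06 ± 0.09 (SE), adjusted p = 0.724, in Scr and -0.24 ± 0.10 (SE), adjusted p = 0.0968, in KO. RFC5 overlaps WSB2 on the other strand.

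Of the 3 RPA subunits, which coat single-stranded DNA, 2 fell in each genotype. RPA2 (ENSG00000117748, chr1:27891524-27914746, minus strand) stood at 88.0 and 96.3 in Scr13 and 78.2 and 98.1 in Scr16 without treatment, and 74.6 and 74.4 in Scr13 and 71.6 and 79.7 in Scr16 after doxorubicin. In KO it stood at 89.9 and 77.2 in KO11 and 78.2 and 80.7 in KO28 without treatment, and 63.7 and 61.7 in KO11 and 56.8 and 71.7 in KO28 after doxorubicin. Treated KO values lay under the untreated ones, and in Scr the groups overlapped. RPA2 had a log2 fold change of -0.26 ± 0.09 (SE), adjusted p = 0.0591, in Scr and -0.36 ± 0.09 (SE), adjusted p = 0.00779, in KO. RPA2 shares its name with 3 pseudogenes. RPA1, the large subunit (ENSG00000132383, chr17:1829702-1900082, plus strand), was measured at 147 and 146 in Scr13 and 145 and 159 in Scr16 without treatment, and 130.4 and 131 in Scr13 and 108 and 124 in Scr16 after doxorubicin. KO libraries had RPA1 at 141 and 124 in KO11 and 138 and 137 in KO28 without treatment, and 110.0 and 128 in KO11 and 114 and 107 in KO28 after doxorubicin. In Scr the groups did not overlap and in KO they did. RPA1 had a log2 fold change of -0.28 ± 0.08 (SE), adjusted p = 0.0225, in Scr and -0.23 ± 0.08 (SE), adjusted p = 0.0453, in KO. RPA1 overlaps SMYD4 on the other strand. RPA3 fell in Scr, at -0.41 ± 0.11 (SE), adjusted p = 0.0205, and had -0.20 ± 0.12 (SE), adjusted p = 0.26, in KO.

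The joining of Okazaki fragments was covered by 2 genes. FEN1, the flap nuclease (ENSG00000168496, chr11:61792637-61797244, plus strand), had 122 and 131 in Scr13 and 121 and 121 in Scr16 without treatment, and 105 and 111 in Scr13 and 104 and 108 in Scr16 after doxorubicin. Its KO values were 127 and 118 in KO11 and 101 and 121 in KO28 without treatment, and 86.8 and 99.6 in KO11 and 78.6 and 88.9 in KO28 after doxorubicin. Treated values were lower without overlap in both genotypes. FEN1 had a log2 fold change of -0.21 ± 0.07 (SE), adjusted p = 0.057, in Scr and -0.40 ± 0.09 (SE), adjusted p = 0.00283, in KO. FEN1 overlaps FADS2 on the same strand and TMEM258 on the other. LIG1, the ligase that seals the fragments (ENSG00000105486, chr19:48115445-48170603, minus strand), was 119.5 and 131 in Scr13 and 135 and 128 in Scr16 without treatment, and 106 and 148 in Scr13 and 112 and 116 in Scr16 after doxorubicin. KO gave LIG1 at 109 and 114 in KO11 and 113 and 125 in KO28 without treatment, and 109 and 118 in KO11 and 104 and 118 in KO28 after doxorubicin. One treated Scr13 library was the highest, and treated and untreated libraries overlapped within each genotype. LIG1 had a log2 fold change of -0.10 ± 0.09 (SE), adjusted p = 0.532, in Scr and -0.04 ± 0.08 (SE), adjusted p = 0.817, in KO.

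Of the fork protection genes, 2 of 3 fell in each genotype. TIPIN, which binds TIMELESS at the fork (ENSG00000075131, chr15:66336206-66386746, minus strand), gave 13.3 and 16.1 in Scr13 and 15.4 and 19.2 in Scr16 without treatment, and 13.4 and 9.84 in Scr13 and 12.5 and 10.6 in Scr16 after doxorubicin. In KO, TIPIN was 15.9 and 21.9 in KO11 and 14.02 and 16.6 in KO28 without treatment, and 9.53 and 10.6 in KO11 and 9.74 and 9.33 in KO28 after doxorubicin. Scr groups overlapped by a narrow margin and KO groups did not. TIPIN had a log2 fold change of -0.43 ± 0.17 (SE), adjusted p = 0.105, in Scr and -0.73 ± 0.17 (SE), adjusted p = 0.00311, in KO. TIMELESS (ENSG00000111602, chr12:56416373-56449403, minus strand) measured 234 and 258 in Scr13 and 211 and 241 in Scr16 without treatment, and 170.3 and 196 in Scr13 and 194 and 185 in Scr16 after doxorubicin. KO values of TIMELESS were 220.1 and 211 in KO11 and 188 and 201 in KO28 without treatment, and 139.7 and 150.02 in KO11 and 142 and 142 in KO28 after doxorubicin. Treated KO values formed the lowest set without overlap. TIMELESS had a log2 fold change of -0.34 ± 0.07 (SE), adjusted p = 0.00572, in Scr and -0.51 ± 0.07 (SE), adjusted p = 2.32e-05, in KO. WDHD1, which ties the priming polymerase to the helicase (ENSG00000198554, chr14:54938950-55027105, minus strand), was 68.5 and 71.3 in Scr13 and 68.9 and 67.0 in Scr16 without treatment, and 57.7 and 54.8 in Scr13 and 42.2 and 61.1 in Scr16 after doxorubicin. Its KO values were 59.2 and 67.8 in KO11 and 67.1 and 45.9 in KO28 without treatment, and 50.5 and 52.0 in KO11 and 42.1 and 45.6 in KO28 after doxorubicin. The second untreated KO28 library was low and lay among the treated KO values, and the Scr groups did not overlap. WDHD1 had a log2 fold change of -0.36 ± 0.10 (SE), adjusted p = 0.0302, in Scr and -0.32 ± 0.12 (SE), adjusted p = 0.0591, in KO. Its call in Scr was kept in 2 of 8 fits that left out 1 library.

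Chromatin assembly factor 1 places histones on new DNA, and of its 2 genes here 0 fell in Scr and 1 in KO. CHAF1A, the large subunit (ENSG00000167670, chr19:4402662-4445018, plus strand), gave 103 and 110.3 in Scr13 and 99.1 and 115 in Scr16 without treatment, and 93.9 and 115 in Scr13 and 106 and 108 in Scr16 after doxorubicin. In KO the CHAF1A values were 99.0 and 111 in KO11 and 105 and 107 in KO28 without treatment, and 72.6 and 74.4 in KO11 and 78.5 and 68.6 in KO28 after doxorubicin. The 4 treated KO libraries stood alone at 68.6 to 78.5, under the other 12. CHAF1A had a log2 fold change of -0.02 ± 0.08 (SE), adjusted p = 0.913, in Scr and -0.51 ± 0.08 (SE), adjusted p = 7.5e-05, in KO. CHAF1A overlaps UBXN6 on the other strand. CHAF1B, the middle subunit (ENSG00000159259, chr21:36385378-36419015, plus strand), was 42.8 and 52.9 in Scr13 and 48.4 and 50.2 in Scr16 without treatment, and 39.7 and 42.3 in Scr13 and 41.4 and 41.9 in Scr16 after doxorubicin. KO libraries held CHAF1B at 48.4 and 49.6 in KO11 and 43.9 and 36.7 in KO28 without treatment, and 38.1 and 38.0 in KO11 and 33.2 and 33.1 in KO28 after doxorubicin. Scr groups did not overlap, and KO groups did through the second untreated KO28 library. CHAF1B had a log2 fold change of -0.22 ± 0.10 (SE), adjusted p = 0.147, in Scr and -0.31 ± 0.11 (SE), adjusted p = 0.0584, in KO. CHAF1B overlaps MORC3 on the same strand.

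**Figure D3:**
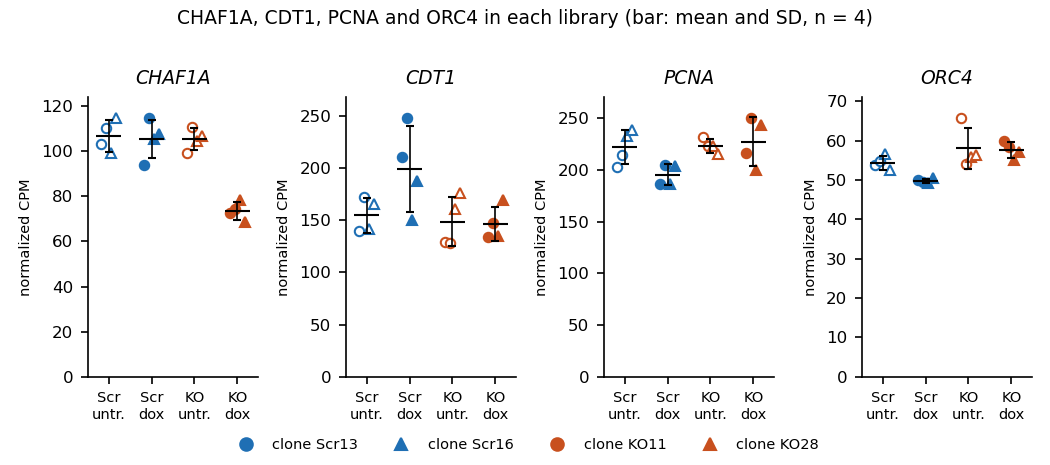
Normalized CPM (vertical axis) of CHAF1A, CDT1, PCNA and ORC4 in the 16 libraries by group, open symbols untreated and filled symbols after doxorubicin, bars for mean and SD (n = 4). CHAF1A is low only in the treated KO libraries, CDT1 is high in the treated Scr13 libraries, and ORC4 is lower in the treated Scr libraries than in the treated KO libraries.

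Whether doxorubicin acted differently on these genes in the 2 genotypes was tested by an interaction term in a fit of all 16 libraries. None of the 50 members passed by limma after adjustment, and 3 of 15325 genes did (0.0196%). At an unadjusted p under 0.05 there were 6 members, ORC1, CDT1, MCM3, MCM6, POLD1 and CHAF1A, each with a lower log2 fold change in KO, beside 1148 of the 15325 genes. Quasi-likelihood tests of edgeR on the recovered reads called 0 members and DESeq2 called 1, CHAF1A. For CHAF1A the difference was -0.49 ± 0.11 (SE), adjusted p = 0.126, with a 95% interval of -0.72 to -0.27. MCM6 had -0.32 ± 0.10 (SE), adjusted p = 0.438, with an interval of -0.53 to -0.10. The median difference over the members was -0.08, with 29 of 50 below 0, beside 0.02 over all genes. The 95% intervals reached between 0.21 and 0.50 to each side on the log2 scale, without adjustment for the number of genes.

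Replication genes outside the 50 fell in part as well. Of 27 others listed from general knowledge, 8 fell and 0 rose in Scr, and 12 fell and 0 rose in KO, with medians of -0.24 and -0.29. The shares called lower over all genes tested were 4.94% in Scr and 7.38% in KO. In Scr the lowest were POLE4, a small polymerase subunit (-0.79 ± 0.21 (SE), adjusted p = 0.0211), ASF1A, a histone chaperone (-0.44 ± 0.13 (SE), adjusted p = 0.0396), and PCLAF, a PCNA partner (-0.40 ± 0.15 (SE), adjusted p = 0.102). Of the calls in Scr, ASF1A and MMS22L each kept theirs in 1 of 8 fits that left out 1 library, and CLSPN in 2 of 8. The highest there were POLD4 at 0.31 ± 0.34 (SE), adjusted p = 0.632, TICRR at 0.07 ± 0.09 (SE), adjusted p = 0.644, and LRWD1 at 0.07 ± 0.08 (SE), adjusted p = 0.633. In KO the lowest were DNA2, a nuclease of long flaps (-0.59 ± 0.12 (SE), adjusted p = 0.00128), MTBP (-0.51 ± 0.19 (SE), adjusted p = 0.0672) and PCLAF (-0.49 ± 0.16 (SE), adjusted p = 0.0346). RNASEH2C, MCM8 and PCLAF kept their calls in KO in 1, 2 and 4 of 8 such fits. DONSON had the highest value in KO at 0.23 ± 0.13 (SE), adjusted p = 0.222, followed by LRWD1 at 0.13 ± 0.09 (SE), adjusted p = 0.323, and ASF1A at 0.01 ± 0.15 (SE), adjusted p = 0.981.

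Of 34 genes of G2 and mitosis, 1 fell in Scr and 25 fell in KO, with medians of -0.05 and -0.39. Over all genes tested, 4.94% were called lower in Scr and 7.38% in KO. Cyclin B1 (CCNB1) had a log2 fold change of -0.09 ± 0.11 (SE), adjusted p = 0.644, in Scr and -0.77 ± 0.10 (SE), adjusted p = 6.89e-06, in KO. The mitotic kinase PLK1 had 0.09 ± 0.11 (SE), adjusted p = 0.65, and -0.64 ± 0.10 (SE), adjusted p = 6.02e-05, respectively. None of the 34 passed the interaction test by limma (22 at an unadjusted p under 0.05), so the contrast with the replication genes is a description. Targets of p53 rose, 24 of 25 in Scr and 25 of 25 in KO, with CDKN1A, the cyclin-dependent kinase inhibitor p21, at 2.58 ± 0.13 (SE) in Scr and 2.43 ± 0.08 (SE) in KO, and MDM2 at 0.89 ± 0.08 (SE) and 1.33 ± 0.08 (SE). Over all genes tested, 959 of 14378 were called higher in Scr and 1468 of 14513 in KO. In Scr, FAS and TNFRSF10A passed the filter on low values only through the treated libraries, so they could be tested only because they rose.

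**Figure D4:**
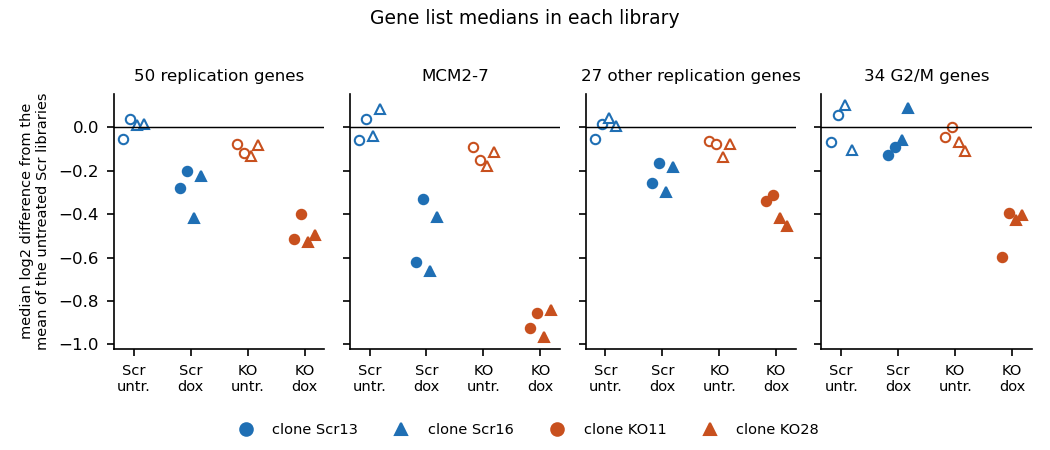
Median over the genes of each list of the log2 difference from the mean of the untreated Scr libraries (vertical axis), for the 16 libraries by group, open symbols untreated and filled symbols after doxorubicin. Panels show the 50 genes, the MCM subunits, 27 other replication genes and 34 G2/M genes. The 50 genes are lower in the treated libraries of both genotypes, -0.20 to -0.42 in Scr and -0.40 to -0.53 in KO, and G2/M genes lie between -0.13 and 0.09 in treated Scr and reach -0.39 to -0.60 in treated KO.

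Without treatment, MCM2 was the one of the 50 genes that passed the test between KO and Scr. Its level was lower in both KO clones. MCM2 (ENSG00000073111, chr3:127598223-127622436, plus strand) gave 285 and 313 in Scr13 and 287 and 324 in Scr16 without treatment, and 215 and 250.1 in Scr13 and 189 and 223 in Scr16 after doxorubicin. In KO it gave 175 and 172 in KO11 and 171 and 198 in KO28 without treatment, and 117 and 121 in KO11 and 107 and 109.6 in KO28 after doxorubicin. Every KO library lay below every Scr library of the same treatment, and untreated KO values overlapped with treated Scr values. Mean MCM2 was 179 ± 12.6 normalized CPM in untreated KO against 302 ± 19.3 in Scr (SD, n = 4), and 114 ± 6.52 against 219 ± 25.4 after doxorubicin. The log2 fold change of KO over Scr was -0.75 ± 0.07 (SE), adjusted p = 7.18e-07, untreated and -0.93 ± 0.08 (SE), adjusted p = 1.43e-07, after doxorubicin. MCM2 also fell with the drug, by 0.47 on the log2 scale in Scr and by 0.65 in KO. It was called in both comparisons of KO with Scr under each of the 24 alternatives run, and the exact permutation test gave p = 0.0286 for either, the smallest possible with 4 against 4.

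Over all members, 1 of 50 was called lower in untreated KO, beside 2.54% of 14364 genes, and 0 were called higher. By sign 44 of 50 were below 0, with a median of -0.11 beside -0.01 over all genes. For 8 members the KO libraries all lay below the Scr libraries (4.999% of all genes did so), MCM2, MCM3, MCM4, MCM6, GINS1, RFC5, RPA1 and RPA3. The members that were not called ranged from -0.31 (RPA3) to 0.15 (ORC1). Of 6 other tested genes within 500 kb of MCM2, set beside it after its value was seen, 0 were called untreated and 1 after doxorubicin, PODXL2 at -0.41 (adjusted p = 0.00237). MGLL, a lipase gene of low level (means of 2.57 normalized CPM in untreated KO and 4.87 in Scr), had a log2 fold change of -0.73 ± 0.25 (SE), adjusted p = 0.116, untreated and -0.60 ± 0.24 (SE), adjusted p = 0.146, after doxorubicin. TPRA1, which overlaps MCM2 on the other strand, had a log2 fold change of 0.10 ± 0.15 (SE) untreated and -0.15 ± 0.18 after doxorubicin.

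After doxorubicin, 10 of 50 members were lower in KO than in Scr and 0 were higher, with 4.17% of 14572 genes called lower. The treated libraries here are those of the doxorubicin comparisons, so these values are not independent of the ones above. The median of the members was -0.17 beside 0.01 over all genes, and 40 of 50 were below 0. Complete separation with KO lower was seen for 10 members (6.42% of all genes), and ORC4 alone lay higher in KO without overlap, at 0.21 ± 0.09 (SE), adjusted p = 0.18. After MCM2, the lowest were CHAF1A at -0.51 ± 0.08 (SE), adjusted p = 0.000275, MCM6 at -0.51 ± 0.08 (SE), adjusted p = 0.000203, and POLD1 at -0.47 ± 0.09 (SE), adjusted p = 0.000812. Their mean values in KO and Scr were 73.5 ± 4.14 against 105 ± 8.62 for CHAF1A, 96.9 ± 8.94 against 138 ± 7.41 for MCM6 and 80.4 ± 2.74 against 112 ± 11.6 for POLD1 (SD, n = 4). CDT1 followed at -0.43 ± 0.11 (SE), adjusted p = 0.0187, with overlapping groups. DBF4 was at -0.40 ± 0.11 (SE), adjusted p = 0.0275, and overlapped as well. MCM3 had -0.38 ± 0.09 (SE), adjusted p = 0.0071, and TIMELESS -0.37 ± 0.07 (SE), adjusted p = 0.00149. The smallest calls were RFC5 at -0.33 ± 0.10 (SE), adjusted p = 0.0425, and FEN1 at -0.28 ± 0.08 (SE), adjusted p = 0.0401. Members that did not pass ranged from -0.39 (GINS2) to 0.21 (PCNA). PCNA was called higher in KO by limma with the replicate number as a block (adjusted p = 0.0467).

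**Figure D5:**
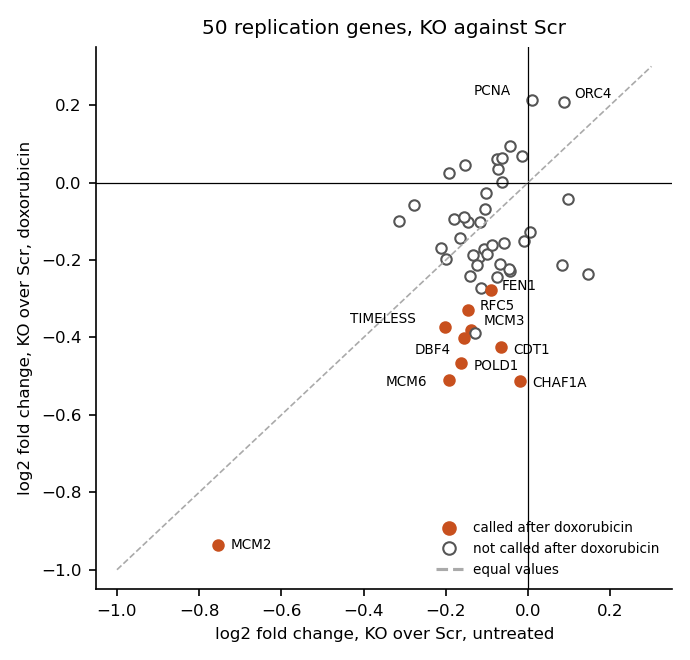
Log2 fold change of KO over Scr for the 50 genes without treatment (horizontal axis) and after doxorubicin (vertical axis), filled where adjusted p after doxorubicin was under 0.05. MCM2 stands apart at -0.75 and -0.93, the other 9 filled points lie under the dashed line of equal values, and PCNA and ORC4 are the highest after doxorubicin. Filled points were chosen by their values after doxorubicin, so their place under the line is no test of a difference. None of them passed the interaction test by limma.

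MCM2, MCM6, CHAF1A, POLD1 and TIMELESS were called under each of the 24 alternatives of this comparison. The calls of MCM3, CDT1, DBF4, FEN1 and RFC5 were lost in 2, 9, 10, 12 and 12 of them. Calls without clone KO11 numbered 5, and without Scr13 or KO28 they numbered 6. Without Scr16, CDT1 lay lower, at -0.65 (adjusted p = 0.000185 by limma), and without Scr13 it was at -0.20 (adjusted p = 0.296). Other gene lists moved with the same contrast. Of 34 G2/M genes, 27 were lower in KO after doxorubicin (4.17% of all genes tested) and 0 without it (2.54% of all genes tested). Of the p53 targets 11 of 23 were higher without and 19 of 25 with the drug. Among all genes tested, 330 of 14364 were called higher in KO without the drug and 659 of 14572 with it. CDKN1A was between 123 and 158 normalized CPM in untreated KO and between 42.3 and 75.1 in untreated Scr, with a log2 fold change of 1.27 ± 0.14 (SE), adjusted p = 3.36e-06. Among the mesenchymal markers, 5 of 9 tested without treatment and 5 of 8 with it were higher, and 1 was lower. COL1A1, COL3A1, DCN, LUM and FN1 were the higher ones, and TWIST1, the most abundant of the list, was lower, under both treatments. DCN under both treatments and LUM after doxorubicin passed the filter on low values only through the KO libraries, so their calls are no support. Untreated COL3A1 overlapped between the groups, at 126 in the second KO11 and 139 in the first Scr13 library. The summed level of the mesenchymal markers was 674 to 892 normalized CPM in untreated KO and 495 to 758 in untreated Scr, and 692 to 962 against 502 to 613 after doxorubicin. The 758 came from the first Scr13 library, which thus lay within the KO range. The part of these lists in the result was not tested, and with 2 clones per genotype a difference of genotype and one of clones cannot be told apart.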

How the data were processed

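RNA-seq of poly(A) RNA was analysed from 16 libraries. The submitters' processing notes name bcl2fastq, HISAT2 2.1.0, HTSeq, edgeR and GRCh38. The authors deposited 2 tables, one for untreated and one for treated libraries, with a signal of normalized CPM for 26410 genes. Their own comparison columns (log2 fold change, p-value, q-value and rank) were deposited beside it and were not used. Dividing each value by the smallest step gave whole reads for 100% of values within 0.01 read, 10481177 to 25086085 per library, and normalization factors of 0.974 to 1.029. Their geometric mean was 1.012 in the untreated table, 0.992 in the doxorubicin table and 1.002 over all 16 libraries. Both tables were taken to be on one scale, which these values do not prove. A common scaling of all 16 libraries from the recovered reads was run as an alternative. All columns of values per sample were mapped. GENCODE 29 named 95.86% of the gene IDs.

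A gene was tested where 4 or more of the compared libraries reached 1 normalized CPM. Tests were run with limma 3.58.1 (R 4.3.3) on log2(normalized CPM + 1), a pseudocount of 1, with Benjamini-Hochberg adjustment over all genes tested and a threshold of 0.05. Doxorubicin was compared with no treatment within each genotype, KO with Scr within each treatment (4 libraries against 4), and the interaction over all 16. Code was tested on simulated data. The members and gene lists were chosen with earlier results of these data known. Named in full were the members with the largest and the smallest mean doxorubicin change in each role group, and up to 10 with the smallest p in each comparison of KO with Scr. Outside them, CDKN1A, MDM2, CCNB1, PLK1 and the 3 most changed other replication genes in each direction were named. Other members are given by counts and ranges, and those with values were chosen after their values were seen. Alternatives were pseudocounts of 0.5 and 5, other filters, scalings, blocks, a threshold of 0.01, edgeR 4.0.16 and DESeq2 1.42.0 on recovered reads, and leaving out each library or clone. p-values measure the spread between these libraries, in which 2 replicates share a clone.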

Additional observations from a re-analysis of the deposited data

Results flagged for a closer look

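In each group of 4 libraries, the highest or lowest value of each member was set against the other 3. Of 200 such groups, 12 (6%) held a library farther from the rest than Dixon's 95% critical value allows, and chance flags about 1 in 20. Among untreated KO libraries, the first KO11 library stood high for ORC1 at 43.9 normalized CPM (others 38.2 to 39.0). The first KO28 library stood low for MCM4 at 351 (390 to 391), for GINS1 at 39.6 (47.2 to 48.6) and for RFC4 at 40.8 (45.3 to 45.9). The second KO28 library stood high for MCM2 at 198 (171 to 175) and low for RFC5 at 47.3 (50.6 to 51.2). MCM2 in that library remained below every untreated Scr library.

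Among untreated Scr libraries, ORC2 was high in the first Scr16 library at 72.6 normalized CPM (62.6 to 63.8), RPA1 in the second Scr16 library at 159 (145 to 147) and FEN1 in the second Scr13 library at 131 (121 to 122). GINS4 was low in the first Scr13 library at 21.6 (23.8 in each of the others). Among treated KO libraries, CDC7 was high in the second KO11 library at 48.4 (36.2 to 37.7), and GINS3 was low in the second KO28 library at 16.9 (20.3 to 20.5).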

How the results depend on the processing

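No called result changed its direction under an alternative. Every median over the members stayed within the spread between libraries. With doxorubicin in Scr, 24 members were called, 13 with no filter on low values, 13 at adjusted p under 0.01, 5 without clone Scr13 (CDC45, MCM2, MCM4, MCM5 and MCM6), 8 without clone Scr16 and between 18 and 24 when 1 library was left out. In KO, 30 were called, 17 without clone KO11 and between 25 and 31 without 1 library. DESeq2 also called CHAF1B, POLD2, PRIM2 and WDHD1 lower in KO, and FEN1 and RPA2 lower in Scr. The interaction called 0 members, 1 by DESeq2 (CHAF1A, adjusted p = 0.00657) and 0 without any 1 library. KO against Scr called 1 member untreated, 2 by DESeq2 (MCM2 and RPA3), 2 without clone KO11 (MCM2 and DSCC1) and 1 without any 1 library. After doxorubicin it called 10, 5 with no filter (MCM2, MCM6, CHAF1A, POLD1 and TIMELESS), 6 at adjusted p under 0.01, 5 without clone KO11 (those 5 again), 6 without clone Scr13, 6 without clone KO28 and between 6 and 14 without 1 library, with 6 when the first KO11 or the second Scr13 treated library was left out. Leaving out libraries or clones means fewer samples, and otherwise the cause was not tested. In Scr 4 of 24 members (CDC45, MCM4, MCM5 and MCM6) and in KO 16 of 30 were called under every alternative.

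The replicate block paired libraries of the same clone and number in the doxorubicin and interaction fits. In KO against Scr it was the replicate number alone. With this block, 28 members were called in Scr, 34 in KO, 0 in the interaction, 1 in untreated KO against Scr and 12 after doxorubicin. Of these, CDT1 was higher with the drug in Scr (adjusted p = 0.00811) and PCNA was higher in KO than in Scr after doxorubicin (adjusted p = 0.0467), and the others were lower. Without the first treated KO28 library PCNA was called higher as well. Libraries of equal number correlated between -0.04 and 0.22 in their deviations, so the numbers were not taken as pairs in the main tests. Still, the median of the members, as log2 difference from untreated Scr, was higher in the second treated library than the first of each clone. It was -0.40 against -0.52 in KO11, -0.20 against -0.28 in Scr13, -0.23 against -0.42 in Scr16 and -0.50 against -0.53 in KO28. Among untreated libraries KO11 went the other way, at -0.12 against -0.08. The lowest member had 115 reads in a library, and intervals cover the spread between libraries only.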
